A study of Mus musculus with 18 samples.

Results

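The 9 genes described here cover the digestion, uptake and first use of dietary sugar in the small intestine. They were chosen by name: the brush-border disaccharidases *Sis*, *Mgam*, *Treh* and *Lct*, the sugar transporters *Slc5a1*, *Slc2a5* and *Slc2a2*, and the enzymes *Khk* and *Fbp1*. The choice was made with earlier results of these data known. All 9 had at least 1 probe on the array, 12 probes in all, and every one of the 12 passed the filter on dim probes. Each gene is given by its brightest probe, the one with the highest mean signal over all arrays. In all, 21542 of the 37074 gene names on the array passed the same filter.

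Expression was measured in 18 C57BL6/J mice, 1 one-colour microarray per mouse. On such an array a labelled copy of the RNA binds to short DNA probes, and more transcript gives a brighter spot. There were 6 iPGC1afl/fl mice on chow, 6 iPGC1afl/fl mice on a high-fat diet (HFD) and 6 iPGC1a-/- mice on HFD. All 18 mice carried *Pgc1α* alleles flanked by loxP sites. In iPGC1a-/- mice a Cre recombinase driven by the Villin promoter (*Vil1*-Cre) was present to delete the coactivator gene in the intestinal epithelium, and iPGC1afl/fl mice served as controls. The diets started at 8 weeks of age and lasted 8 weeks, and all mice were killed 3 hours into the light phase (Zeitgeber time 3), having been fasted overnight. HFD, called WD in the paper, held 42% of its kcal as fat, enriched in saturated milk fat, and 0.2% cholesterol, and the sugar content of both diets is not given in the sources used here. Cells were released from the ileum, the last part of the small intestine, by shaking in a chelating buffer that also held sorbitol and sucrose, so the RNA came from a mixture of epithelial and other cells. In such bulk samples, fewer cells of a type and less RNA per cell cannot be told apart. iPGC1a-/- mice on chow were not analysed here.

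Dietary starch, sucrose, lactose and trehalose are split at the enterocyte brush border by membrane-bound enzymes. Glucose and galactose then enter the cell with sodium through *Slc5a1* (SGLT1), fructose enters through *Slc2a5* (GLUT5), and the sugars leave towards the blood mainly through *Slc2a2* (GLUT2). Inside the enterocyte, ketohexokinase (*Khk*) phosphorylates fructose, and fructose-1,6-bisphosphatase (*Fbp1*) acts in the direction of glucose synthesis. These genes are known to be highest in the proximal small intestine, and *Slc2a5* and *Khk* are known to be induced by dietary fructose.

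On each array 56.3% to 62.3% of spots exceeded the background clearly, and 0 spots were saturated. Each of the 3 slides, which carry several arrays, held 2 arrays of every group. All 16 enterocyte markers and all 5 markers of ileal enterocytes in the lists passed the filter. One array stood apart for these genes. Chow replicate 4 had the lowest signal of the 6 chow arrays for 9 of the 9 genes, whereas it was the lowest chow array for 19.5% of all genes. Its mean correlation with the other chow arrays, 0.991 over 21536 genes, lay within the range of the 6 arrays (0.99 to 0.994). In that array 11 of 16 enterocyte markers and 8 of 9 villus tip markers were the lowest of the chow group, 8 of 9 crypt and cycling markers were the highest, and the part of these and the following markers in the low values was not tested. For Paneth markers it was the lowest in 4 of 4, with a summed linear signal of 363078 against 430140 to 492437 in the other chow arrays. Its sum was the highest of the chow group for ileal enterocyte markers (349499 against 173461 to 323441), though it was the highest in only 1 of 5 genes. For myeloid and stromal markers its sum was the lowest (27549 against 44966 to 51753), though it was the lowest in only 1 of 7 genes. Each diet difference of the 9 genes is therefore given with and without it. The targeted gene *Ppargc1a* did not have lower signal with the label iPGC1a-/-: the mean log2 signal of its brightest probe was 10.94 ± 0.46 (SD, n = 6) on chow, 11.38 ± 0.07 in iPGC1afl/fl mice on HFD and 11.67 ± 0.26 in arrays labelled iPGC1a-/-. The second *Ppargc1a* probe gave 8.64 ± 0.49, 9.15 ± 0.14 and 9.51 ± 0.14 in the same order. The paper describes a deletion of exons 3, 4 and 5. The 2 *Ppargc1a* probes lie at positions 2473 and 2964 of the transcript, and whether these fall in the deleted exons was not determined. The paper reports that RT-qPCR, a PCR measure of RNA, showed the loss of *Pgc1α* in the intestinal tracts. Directions by genotype given here refer to the labels.

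On HFD, iPGC1afl/fl mice had higher signal for 3 of the 9 genes, the disaccharidases *Treh* and *Lct* and the fructose transporter *Slc2a5*. A gene was called where the adjusted p of limma (Benjamini-Hochberg over all probes) was 0.05 or lower and the fold change was above 1.5. Over all genes tested, 694 (3.22%) were called higher and 1121 (5.2%) lower. *Khk* also passed the adjusted p, with a fold change below 1.5. By the adjusted p alone, 4 of the 9 genes were higher and 0 lower, against 10.4% and 14.2% of all genes. The same 4 genes were those whose 6 HFD arrays all lay above the 6 chow arrays, which held for 5.11% of all genes. The median log2 fold change was 0.39 for the 9 genes and 0.00 for all genes. Without chow replicate 4 the median of the 9 genes was 0.04, and 2 genes (*Treh* and *Lct*) were called, beside 2.84% of all genes called higher.

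**Figure D1:**
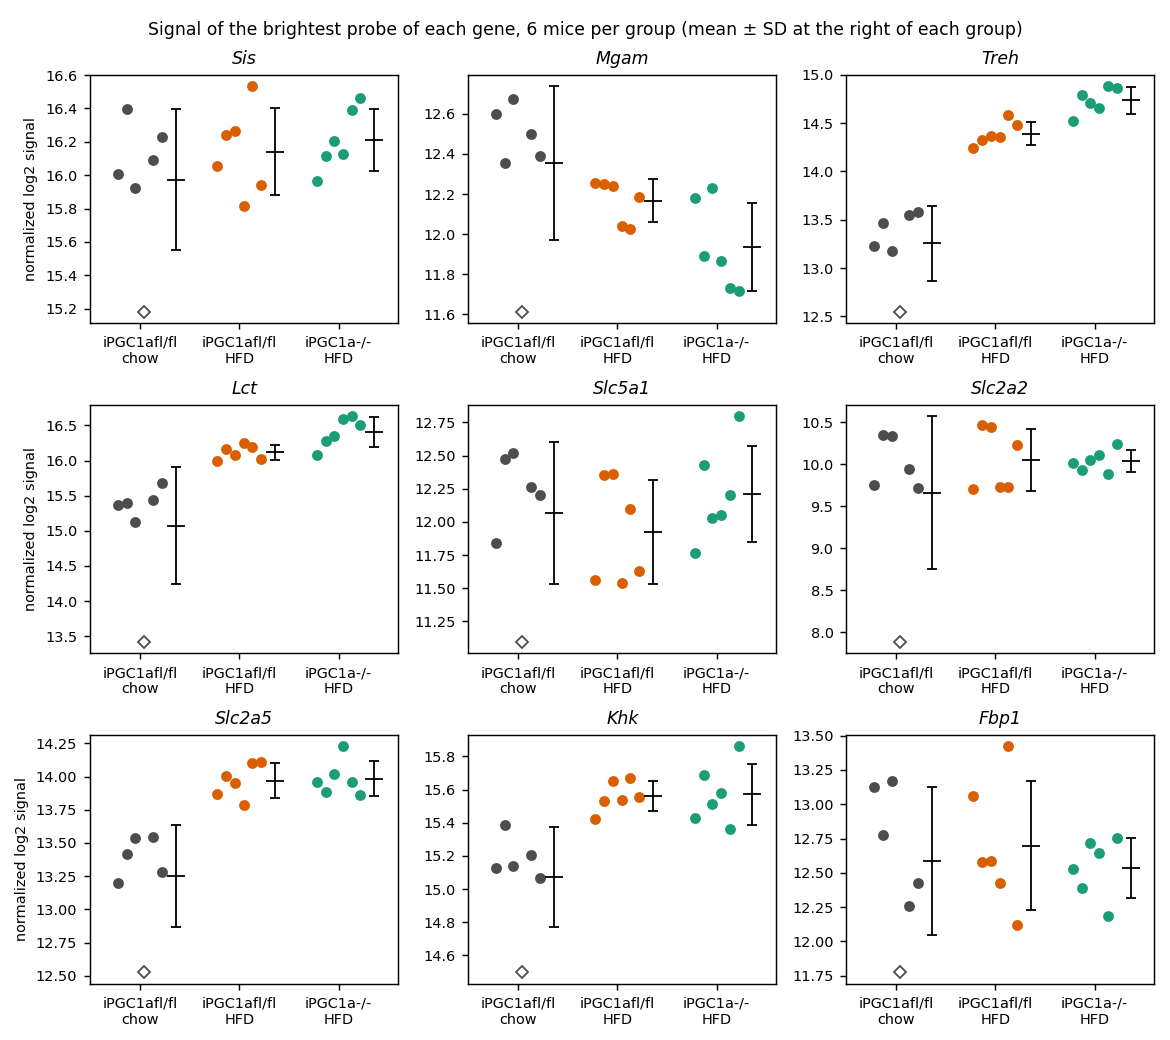
Normalized log2 signal (vertical axis) of the brightest probe of each gene in the 3 groups (horizontal axis), 1 point per mouse, with the mean and SD of the 6 mice at the right of each group; the open diamond is chow replicate 4. For *Treh*, *Lct*, *Slc2a5* and *Khk* all 6 arrays of iPGC1afl/fl mice on HFD lie above all 6 chow arrays, and the diamond is the lowest chow value in all 9 panels.

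*Treh* encodes trehalase, which splits the disaccharide trehalose of fungi and insects into glucose. Its log2 signal ran from 12.55 through a median of 13.35 to 13.58 on chow, from 14.25 through 14.36 to 14.58 in iPGC1afl/fl mice on HFD, and from 14.52 through 14.75 to 14.89 in iPGC1a-/- mice on HFD. All 12 HFD arrays were thus above all chow arrays, while the 2 HFD groups overlapped. The diet difference was 1.14 (SE 0.13), a 2.20-fold rise with an adjusted p of 5.11e-06 by limma. It was positive within each of the 3 slides, from 0.74 to 1.41, and 0.99 (adjusted p = 8.64e-07 by limma) without chow replicate 4. The probe lies at chr9:44494328-44494387 on mm9, the build of the array files, on the plus strand.

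*Lct* encodes lactase, the enzyme that splits milk sugar and whose level falls after weaning in most mammals. Its log2 signal ran from 13.42 through 15.39 to 15.68 on chow, from 15.99 through 16.12 to 16.25 in iPGC1afl/fl mice on HFD, and from 16.09 through 16.43 to 16.63 in iPGC1a-/- mice on HFD. The lowest chow value was that of replicate 4, and the next lowest was 15.13. No chow array reached the HFD range. On HFD it was 1.05 (SE 0.25) higher, or 2.06-fold, with an adjusted p of 0.00526 by limma. When chow replicate 4 was left out, it was 0.71 (SE 0.11, adjusted p = 8.83e-05 by limma), and the SD of the chow group went from 0.83 to 0.20. Within slides the difference was 0.47, 0.93 and 1.73, the last on the slide that held chow replicate 4. The probe lies on the minus strand at chr1:130181389-130181448 (mm9).

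The other brush-border enzymes did not pass the test. *Sis* encodes sucrase-isomaltase, the main sucrose- and starch-digesting enzyme of the brush border. Its log2 signal was 15.18 to 16.40 (median 16.05) on chow, 15.81 to 16.54 (median 16.15) in iPGC1afl/fl mice on HFD and 15.96 to 16.46 (median 16.17) in iPGC1a-/- mice on HFD, so the groups overlapped throughout. The diet difference was 0.17 (95% interval -0.17 to 0.51) with chow replicate 4 and 0.01 (SE 0.12) without it, so nearly all of it rested on 1 mouse. The second *Sis* probe gave -0.20 (-0.67 to 0.26). *Mgam* encodes maltase-glucoamylase, which shortens starch fragments. Its log2 signal was 11.61 to 12.68 (median 12.45) on chow, 12.03 to 12.25 (median 12.21) in iPGC1afl/fl mice on HFD and 11.71 to 12.23 (median 11.88) in iPGC1a-/- mice on HFD. Here chow replicate 4 was the lowest of all 18 arrays and the other 5 chow arrays were above every HFD array. Its diet difference was -0.19 (-0.48 to 0.11), with -0.18 at the second probe. Without chow replicate 4 it was -0.34 (SE 0.10), with an adjusted p of 0.0246 by limma and a fold change below 1.5.

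Of the 3 sugar transporters, *Slc2a5* was called. For *Slc2a5*, the fructose transporter of the brush border, the log2 signal ran from 12.53 through 13.35 to 13.54 on chow, from 13.78 through 13.98 to 14.11 in iPGC1afl/fl mice on HFD and from 13.86 through 13.96 to 14.23 in iPGC1a-/- mice on HFD. No HFD array fell into the chow range, and the 2 HFD groups overlapped. In iPGC1afl/fl mice *Slc2a5* was 0.72 (SE 0.13) higher on HFD, or 1.65-fold (adjusted p = 0.000526 by limma), and 0.50 to 0.98 within slides. It was 0.57 (SE 0.09, adjusted p = 0.000154 by limma) without chow replicate 4, which is below the fold change of 1.5 and so no longer called. The *Slc2a5* probe lies on the plus strand at chr4:149517775-149517834 (mm9).

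For *Slc5a1*, the sodium-glucose transporter of the brush border, the log2 signal was 11.09 to 12.52 (median 12.23) on chow, 11.54 to 12.36 (median 11.86) in iPGC1afl/fl mice on HFD and 11.76 to 12.80 (median 12.13) in iPGC1a-/- mice on HFD. The diet difference was -0.14 (95% interval -0.61 to 0.33, adjusted p = 0.692 by limma), and its sign differed between slides. Without chow replicate 4 it was -0.34 (SE 0.19, adjusted p = 0.242 by limma). For *Slc2a2*, which carries glucose, galactose and fructose across the basolateral membrane, the log2 signal was 7.88 to 10.34 (median 9.84) on chow, 9.71 to 10.46 (median 9.98) in iPGC1afl/fl mice on HFD and 9.88 to 10.24 (median 10.03) in iPGC1a-/- mice on HFD. Chow replicate 4 was 1.83 below the next chow array. The diet difference for *Slc2a2* was 0.39 (95% interval -0.22 to 0.996) with that array and 0.04 (SE 0.16) without it, so most of the difference rested on 1 mouse. The SD of the chow group was 0.91 with that array and 0.31 without it. The interval with that array includes changes as large as that of *Slc2a5*.

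Of the 2 enzymes, *Khk* passed the adjusted p and *Fbp1* did not, and the difference between them was not tested. *Khk* log2 signal ran from 14.50 through 15.13 to 15.38 on chow, from 15.42 through 15.55 to 15.67 in iPGC1afl/fl mice on HFD and from 15.36 through 15.54 to 15.86 in iPGC1a-/- mice on HFD. The chow and iPGC1afl/fl HFD arrays did not overlap, by a gap of 0.04 between the highest chow and the lowest HFD value. The diet difference was 0.49 (SE 0.12), or 1.41-fold, with an adjusted p of 0.0044 by limma, and it lay between 0.40 and 0.61 within slides. It was 0.38 (adjusted p = 0.0062 by limma) without chow replicate 4. A dimmer *Khk* probe gave 0.28 (SE 0.12, adjusted p = 0.0818 by limma). The brighter probe lies at chr5:31233555-31233614 and the dimmer one at chr5:31229105-31229164, both on the plus strand (mm9). *Fbp1* log2 signal was 11.77 to 13.17 (median 12.60) on chow, 12.12 to 13.42 (median 12.58) in iPGC1afl/fl mice on HFD and 12.18 to 12.76 (median 12.59) in iPGC1a-/- mice on HFD. Its diet difference was 0.11 (95% interval -0.35 to 0.57, adjusted p = 0.762 by limma), and -0.05 without chow replicate 4.

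**Figure D2:**
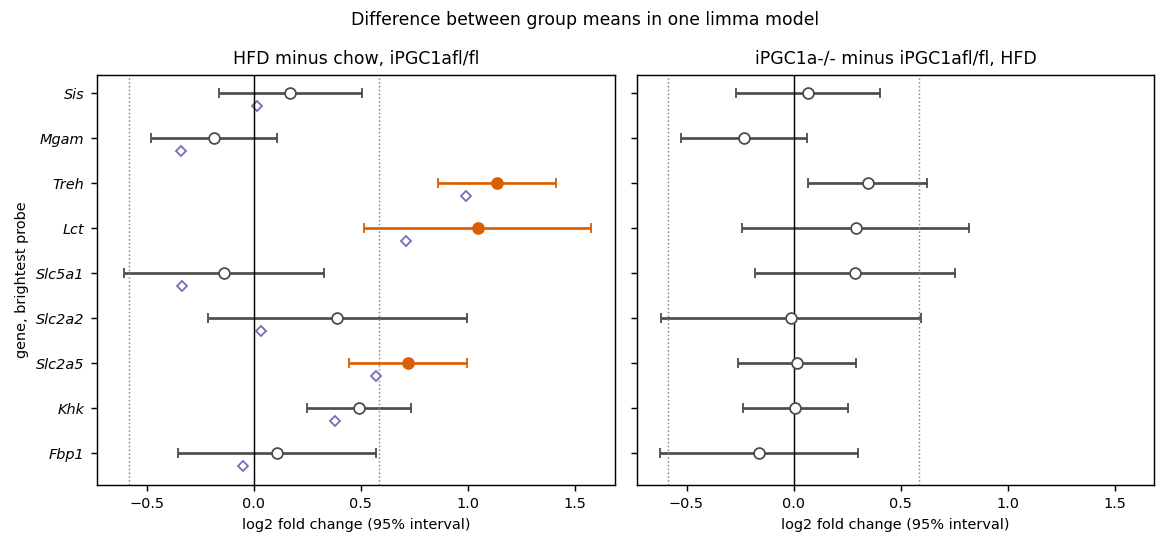
Log2 fold change of each gene (circles) with its 95% interval for HFD minus chow in iPGC1afl/fl mice (left) and iPGC1a-/- minus iPGC1afl/fl mice on HFD (right); filled circles were called, dotted lines mark a fold change of 1.5, and diamonds give the diet value without chow replicate 4. *Treh* (1.14), *Lct* (1.05) and *Slc2a5* (0.72) are filled on the left, and no circle is filled on the right.

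Between the genotypes on HFD, 0 of the 9 genes were called, beside 29 of all genes tested (0.135%). By the adjusted p of limma alone the count was also 0 of 9, against 0.227% of all genes, and for 0 of 9 were the groups free of overlap, against 0.961%. At an unadjusted p of 0.05, only *Treh* passed among the brightest probes, and the share of all genes passing it was not counted. *Treh* was 0.35 higher (95% interval 0.07 to 0.62, adjusted p = 0.433 by limma) in arrays labelled iPGC1a-/-, and positive on each of the 3 slides. *Lct* differed by 0.29 (-0.24 to 0.82), *Slc5a1* by 0.29 (-0.18 to 0.75) and *Mgam* by -0.23 (-0.52 to 0.06). *Lct* and *Slc5a1* were also positive on each of the 3 slides. For the genes of fructose uptake and phosphorylation the differences at the brightest probes lay near 0. *Slc2a5* differed by 0.01 (-0.26 to 0.29) and *Khk* by 0.01 (-0.23 to 0.25), so differences above 1.5-fold lie outside both. The dimmer *Khk* probe gave 0.24 (0.001 to 0.48, adjusted p = 0.519 by limma). *Slc2a2* differed by -0.01 (-0.62 to 0.59), *Sis* by 0.07 (-0.27 to 0.40) and *Fbp1* by -0.16 (-0.62 to 0.30). For *Treh*, *Lct*, *Slc5a1*, *Slc2a2* and *Fbp1* the intervals reach past a 1.5-fold difference in at least 1 direction.

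The promoters of the 4 genes with higher signal on HFD are shown with that of *Sis*, whose groups overlapped, for the motifs of factors known from intestinal sugar genes. Each run holds the 250 bases before the start annotated by RefSeq on GRCm38.p6, and a promoter was found for 9 of the 9 genes. They lie at chr9:44672983-44673232 (plus strand) for *Treh*, chr1:128328319-128328568 (minus strand) for *Lct*, chr5:30921309-30921558 (plus strand) for *Khk*, chr4:150119094-150119343 (plus strand) for *Slc2a5* and chr3:72967864-72968113 (minus strand) for *Sis*. Sequences read 5′ to 3′ along the gene. Capitals mark matches, on either strand, to TTTATG (CDX), AGATAA for the GATA factors, CAAAGTCCA (HNF4) or CACGTG (the E-box bound by carbohydrate-response factors, among others), and no match overlapped another.
Treh: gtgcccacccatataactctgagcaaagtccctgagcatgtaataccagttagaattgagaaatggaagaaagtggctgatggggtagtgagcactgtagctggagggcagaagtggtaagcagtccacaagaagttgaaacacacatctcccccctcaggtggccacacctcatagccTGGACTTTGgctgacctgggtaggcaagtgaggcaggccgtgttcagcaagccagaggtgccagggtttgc
Lct: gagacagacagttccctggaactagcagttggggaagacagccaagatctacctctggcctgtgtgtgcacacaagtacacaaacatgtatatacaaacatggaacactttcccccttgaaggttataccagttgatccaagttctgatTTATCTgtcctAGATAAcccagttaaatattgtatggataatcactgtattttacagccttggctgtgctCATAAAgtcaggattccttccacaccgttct
Khk: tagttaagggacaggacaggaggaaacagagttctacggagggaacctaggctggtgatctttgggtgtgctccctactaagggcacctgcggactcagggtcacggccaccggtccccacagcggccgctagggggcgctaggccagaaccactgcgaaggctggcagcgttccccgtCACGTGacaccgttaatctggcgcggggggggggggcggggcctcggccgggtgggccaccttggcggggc
Slc2a5: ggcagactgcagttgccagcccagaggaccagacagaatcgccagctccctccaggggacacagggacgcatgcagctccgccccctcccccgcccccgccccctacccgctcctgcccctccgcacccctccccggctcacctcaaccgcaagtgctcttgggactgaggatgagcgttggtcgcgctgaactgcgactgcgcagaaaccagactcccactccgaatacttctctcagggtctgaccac
Sis: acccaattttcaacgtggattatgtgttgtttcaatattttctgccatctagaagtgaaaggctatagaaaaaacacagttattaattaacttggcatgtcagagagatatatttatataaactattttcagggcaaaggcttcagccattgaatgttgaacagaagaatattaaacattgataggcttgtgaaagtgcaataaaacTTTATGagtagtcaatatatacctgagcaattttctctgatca
The *Treh* run holds an HNF4 match on its minus strand that starts 71 bases before the start, and 0.384% of 32851 promoters hold this motif. *Lct* holds a CDX match at 31 bases and GATA matches at 90 and 101 bases. *Sis*, whose level did not pass the diet test, holds a CDX match at 43 bases. *Khk* holds an E-box at 71 bases, and the *Slc2a5* window holds none of the 4 motifs. CDX matches were found in 10.8% of all promoters, GATA matches in 9.99% and E-boxes in 6.02%. No motif was found in all 4 genes with higher signal on HFD. A match describes the letters only.

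**Figure D3:**
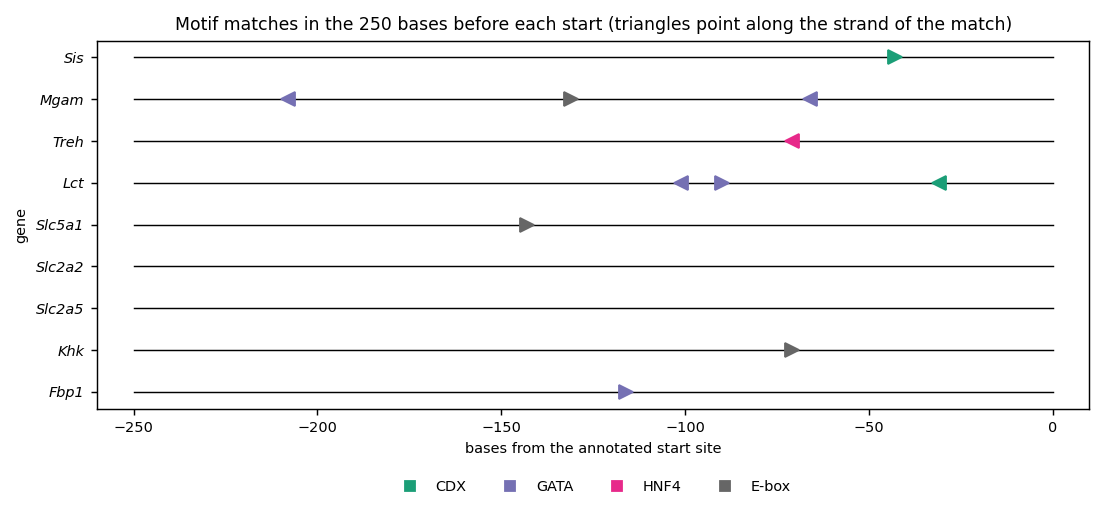
Matches to 4 motifs (colours) in the 250 bases before the annotated start of each gene (horizontal axis, bases from the start), with triangles pointing along the strand of the match. *Sis* and *Lct* hold a CDX match, *Treh* alone of the 9 holds the HNF4 match, and *Slc2a5* and *Slc2a2* hold none.

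The transcription factors behind these motifs were measured too. Of 18 intestinal transcription factors, 1 was called higher on HFD and 2 lower in iPGC1afl/fl mice, and their median log2 fold change was -0.14. The diet differences of *Cdx2* (-0.09), *Hnf4a* (-0.13) and *Gata4* (-0.05) did not pass the test, with adjusted p between 0.411 and 0.866 by limma. Among other factors of these families, named after their values were seen, *Gata5* was the 1 called higher, by 0.61 (SE 0.16, adjusted p = 0.00754 by limma), with overlapping groups. *Hnf4g* differed by 0.36 (adjusted p = 0.0321 by limma) and *Cdx1* by -0.27 (adjusted p = 0.0146 by limma), both with a fold change below 1.5, and without chow replicate 4 the adjusted p of limma was 0.083 for *Hnf4g* and 0.04 for *Cdx1*. *Gata4* was then -0.14 (adjusted p = 0.57 by limma). *Mlxipl*, which encodes the carbohydrate-response factor ChREBP, gave -0.22 (adjusted p = 0.165 by limma). *Onecut2* fell by 1.78 (SE 0.41, adjusted p = 0.00333 by limma) and *Prdm1*, a repressor of the mature enterocyte programme before weaning, fell by 0.94 (SE 0.12, adjusted p = 1.11e-05 by limma). The mean *Prdm1* log2 signal was 9.36 ± 0.27 (SD, n = 6) on chow and 8.42 ± 0.13 on HFD, and no array of one group lay in the range of the other.

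Beyond the 9 genes, 95 of 101 listed genes of sugar transport, sugar metabolism and its regulation passed the filter. On HFD 10 of them were called higher and 12 lower in iPGC1afl/fl mice, so 10.5% were higher and 12.6% lower, against 3.22% and 5.2% of all genes. As the lists were chosen with earlier results of these data known, these shares describe the lists and carry no test. Their median log2 fold change was 0.01, and the genes named from these lists were well above background on every array. Without chow replicate 4, 22 genes were again called, of which 20 were the same: *Galm* and *Akr1b3* were lost and *Galk1* and *Gfpt1* gained. The fold changes of the 20 shared genes were then 0.806 to 1.14 times those with it on the log2 scale.

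Among 19 other sugar transporters, 3 were called higher and 4 lower. The gene with the largest change of the lists was *Slc5a4b*, a member of the sodium-glucose transporter family, with a mean log2 signal of 9.54 ± 0.48 (SD, n = 6) on chow and 11.93 ± 0.26 on HFD, a difference of 2.39 (SE 0.20, adjusted p = 1.12e-07 by limma). Its close paralogue *Slc5a4a* rose by 1.04 (SE 0.21, adjusted p = 0.0011 by limma), and cross-binding of the 2 related transcripts to these probes was not tested. *Slc5a11*, which carries inositol with sodium, rose by 0.82 (SE 0.13). *Slc2a1*, the widely expressed glucose transporter GLUT1, fell by 0.66 (SE 0.10, adjusted p = 7.03e-05 by limma). *Slc2a7*, another transporter of the GLUT family in the intestine, differed by 0.42 (adjusted p = 0.0962 by limma) and did not pass, and the value was 0.25 without chow replicate 4.

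In the polyol and fructose pathway, *Sord*, which encodes the sorbitol dehydrogenase that makes fructose from sorbitol, rose from 12.95 ± 0.32 (SD, n = 6) on chow to 14.54 ± 0.20 on HFD, by 1.59 (SE 0.13, adjusted p = 6.81e-08 by limma). *Glyctk*, the glycerate kinase at the end of one branch of fructose breakdown, rose by 0.81 (SE 0.15, adjusted p = 0.000436 by limma). *Akr1b7*, a gene of the aldose reductase family, fell from 13.58 ± 0.55 (SD, n = 6) to 12.59 ± 0.39 (adjusted p = 0.00339 by limma). *Tkfc*, which encodes the triokinase that acts after *Khk* in fructose breakdown, differed by 0.19 (adjusted p = 0.431 by limma) and did not pass, and the value was 0.11 without chow replicate 4. In all, 4 of the 17 listed genes of fructose, polyol and galactose metabolism were called higher and 3 lower.

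Of 7 gluconeogenesis genes 1 was called higher and 1 lower, and of 23 glycolysis genes 0 were called higher and 2 lower. *Pck1*, which encodes the cytosolic phosphoenolpyruvate carboxykinase of gluconeogenesis and glyceroneogenesis, rose from 12.29 ± 0.99 (SD, n = 6) to 14.51 ± 0.35, by 2.22 (SE 0.32, adjusted p = 5.11e-05 by limma). *Hk2*, a hexokinase that phosphorylates glucose, fell by 1.67 (SE 0.22, adjusted p = 1.43e-05 by limma), and *Pfkfb3*, whose product makes an activator of glycolysis, fell by 2.29 (SE 0.28, adjusted p = 8.02e-06 by limma). Of 11 genes of sugar sensing and response, *Klf15*, a transcription factor of the fasting response, was the 1 called, with a rise of 2.08 (SE 0.21, adjusted p = 1.16e-06 by limma). Between genotypes on HFD, 0 of the 95 genes were called, and by the adjusted p of limma alone 0 were higher and 2 lower. At an unadjusted p below 0.05 there were 8 of the 95, and the share of all genes was not counted.

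**Figure D4:**
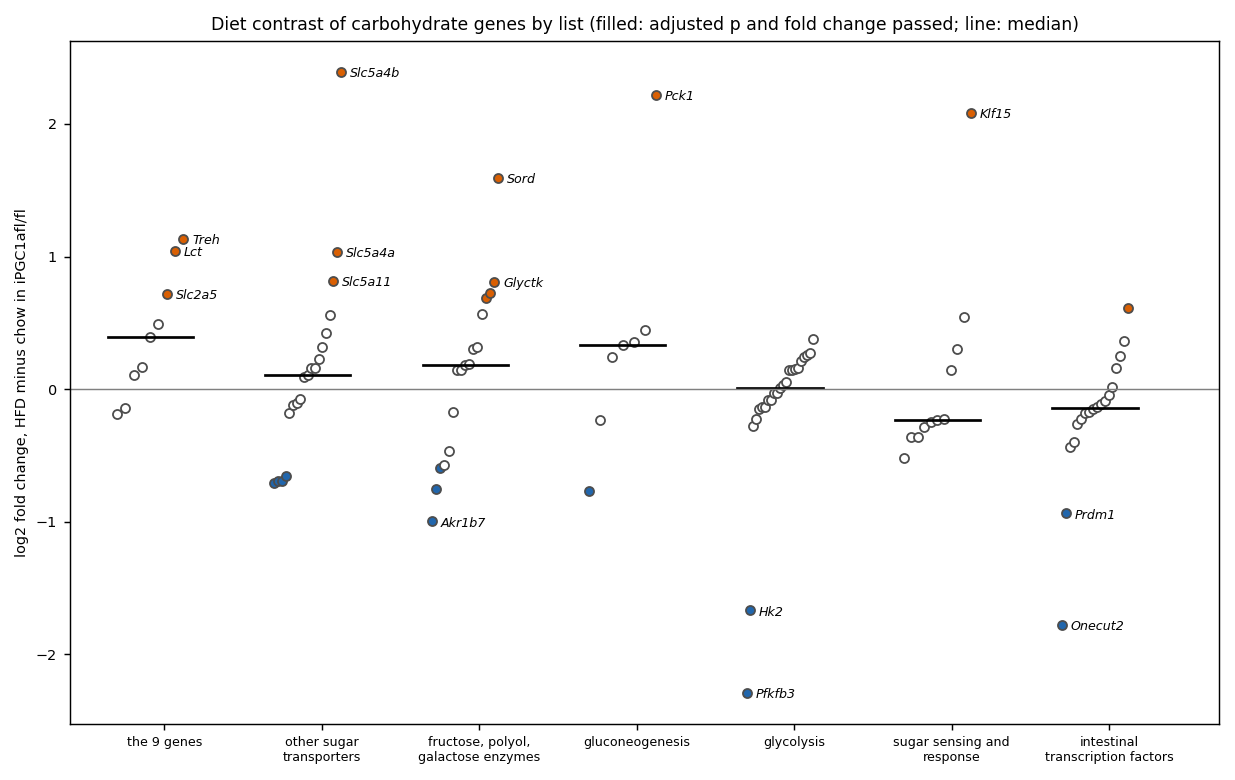
Log2 fold change for HFD minus chow in iPGC1afl/fl mice (vertical axis) of the 9 genes and of 95 other carbohydrate genes by list (horizontal axis), 1 point per gene at its brightest probe, with filled points called and a line at each list's median. Of the 9 genes 3 are filled and all of these are higher, while the other lists hold points of both colours or of 1 colour, 10 higher and 12 lower in all.

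Markers of cell types moved with diet beside these genes. Of 16 enterocyte markers, 4 (*Alpi*, *Apoa4*, *Fabp1* and *Slc15a1*) were called higher on HFD and 0 lower, with a median of 0.24, and their summed linear signal was 981511 to 1250700 on chow and 1242960 to 1475130 in iPGC1afl/fl mice on HFD. Of 9 villus tip markers, 1 was called higher and 3 lower. The median log2 fold change of the villus tip markers was -0.14. Their summed signal went the other way, with 185661 to 322000 on chow and 319959 to 400452 in iPGC1afl/fl mice on HFD. The brightest villus tip markers, *Apoa4* (0.98) and *Apoa1* (0.36), weigh most in this sum and are also among the enterocyte markers. Of 9 lymphocyte markers, 7 were lower and 0 higher, with a median of -1.76 and a summed signal of 14870 to 46066 on chow and 6592 to 11336 on HFD. Of 6 goblet cell markers, 4 were lower, with a summed signal of 286510 to 379947 on chow and 140306 to 312254 on HFD. Among 5 markers of ileal enterocytes, *Fgf15* was called higher and *Slc10a2* and *Slc51b* lower. In the other lists 0 markers were called higher, and 2 of 9 crypt and cycling, 1 of 4 Paneth, 1 of 6 enteroendocrine, 1 of 3 tuft and 1 of 7 myeloid and stromal markers were called lower. For genotype, 0 markers of any list were called by limma, and by the adjusted p alone the count was also 0. An unadjusted p below 0.05 was found for 6 of 72 markers, and the share of all genes was not counted. Without chow replicate 4 the counts were 3 enterocyte markers higher, 7 lymphocyte markers lower and 4 goblet markers lower. Called lower were then 1 ileal enterocyte marker (*Slc51b*, with *Slc10a2* lost), 1 crypt and cycling marker and 0 tuft markers. The part of these cell types in the higher *Treh*, *Lct*, *Slc2a5* and *Khk* signal and in the other changes was not tested.

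Across mice the 9 genes varied together, mainly through 1 array. After the group means were subtracted, Pearson r over the 18 arrays was between 0.26 (*Fbp1* with *Treh*) and 0.90 (*Lct* with *Treh*), with a median of 0.67 over the 36 pairs and 27 pairs above 0.5. Without chow replicate 4 the median was 0.13, with 5 pairs above 0.5 and 11 below 0. The highest value was then that of *Lct* with *Treh* (0.66), and the lowest were those of *Mgam* with *Lct* (-0.73) and with *Treh* (-0.72). These values describe 18 or 17 arrays that share slides and normalization and carry no test.

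**Figure D5:**
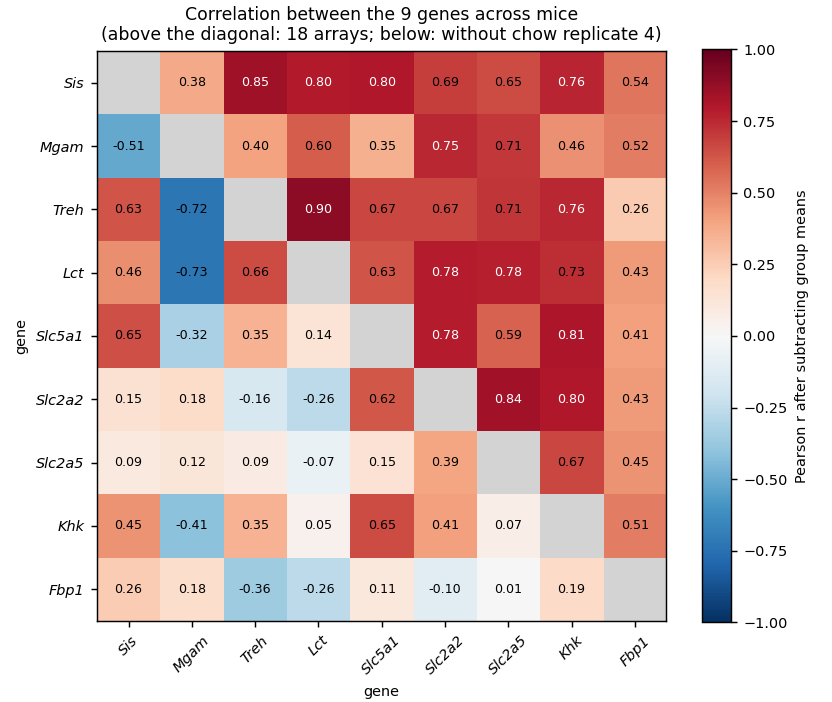
Pearson r between the log2 signals of each pair of genes (both axes) after the group means were subtracted, over 18 arrays above the diagonal and without chow replicate 4 below it. Above the diagonal all 36 values are positive (0.26 to 0.90), and below it they run from -0.73 to 0.66.

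The genes with the most similar pattern over all 18 arrays, group differences included, were found by Pearson r. For *Treh* these were *Cyp2d10* (0.98), *Cyp2d26* (0.98) and *Dhrs1* (0.98), and for *Lct* *Cyp4v3* (0.98), *Ugt2a3* (0.97) and *Ephx2* (0.97). For *Slc2a5* they were *Gdpd2*, *Leap2* and *Unc93a* (0.95 each), and for *Khk* *Smim24* (0.95), *1810046K07Rik* (0.94) and *Gm7932* (0.92). The values for these 4 genes stayed between 0.89 and 0.98 without chow replicate 4. *Slc2a2* was most like *Chmp4b* (0.94) and *Rab5c* (0.93), and these fell to 0.65 and 0.64 without that array. *Sis* was most like *Gtf2b* (0.90), *Mgam* like *Arl14* (0.90), *Slc5a1* like *Ocln* among probes with a gene symbol (0.86) and *Fbp1* like *Tmem178b* (0.77).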

How the data were processed

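Ileum cells of 18 mice in 3 groups of 6 were measured on Agilent SurePrint G3 Mouse GE arrays. The authors deposited, per array, spot intensity values from Agilent Feature Extraction 10.10.1.1 (per the submitters' processing notes), not normalized between arrays, and a table of log2 values, filtered, corrected for washing bath and labelling serial and normalized with qsmooth. These batches are not in the labels, so the correction was not repeated. Columns of values without a sample numbered 0.

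From the scanner files, control and outlier spots were left out, spots of a probe were averaged, and a probe was kept if flagged well above background on 5 or more of the 6 arrays of some group. Log2 median signals were normalized with a qsmooth procedure written for this work (window 0.05), in R 4.3.3, and tested with limma 3.58.1 (1 model of the 3 groups, Benjamini-Hochberg over 32726 probes). The contrasts were HFD against chow in iPGC1afl/fl mice and iPGC1a-/- against iPGC1afl/fl mice on HFD. P-values measure the spread between mice. Gene levels are not compared between probes. The procedure was tested on simulated data. The number of arrays and signal over background limit the precision, and the median standard error was 0.105.

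The 9 genes, the gene lists and the markers were chosen with earlier results of these data known. Named from the lists were the called genes, up to the 12 largest changes, and *Tkfc*, *Slc2a1*, *Slc2a7*, *Mlxipl*, *Cdx2*, *Hnf4a* and *Gata4* whatever their values, and for each gene the 3 most similar by Pearson r (the first with a symbol for 4 of them). Some results under this rule are not given here. Probe coordinates are those of the array files (mm9). Promoters came from RefSeq tables (GRCm38.p6). Alternatives were other background corrections and normalizations, the authors' log2 values, other filters, slide or replicate number as a block, only the groups compared, another variance model, averaged probes, no fold threshold and each array left out. Python 3.11.15 with matplotlib 3.10.9 drew the plots.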

Additional observations from a re-analysis of the deposited data

Results flagged for a closer look

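In 6 of 36 sets of 6 arrays checked (12 probes in 3 groups), the lowest array was far from the others, where chance gives about 1 in 20. All 6 were chow replicate 4. Its log2 signal was 7.88 for *Slc2a2* (next chow array 9.71), 12.53 for *Slc2a5* (13.2), 13.42 for *Lct* (15.13) and 14.5 for the brighter *Khk* probe (15.06). For *Mgam* it was 11.61 at the brighter probe (12.35) and 9.54 at the other (10.25). The same array had a summed villus tip marker signal of 185661, against 273110 to 322000 in the other chow arrays, and 16934 for crypt and cycling markers, against 9945 to 14058. Their part in these values was not tested.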

How the results depend on the processing

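The count of the 9 genes called for HFD against chow was 3 to 4 over 13 processing alternatives and 2 to 3 when each array was left out. *Khk* was also called, at 0.62 and 0.59, when the processed or the median signal was scaled to its 75th percentile per array, and *Slc2a5* (0.57) was lost without chow replicate 4. With that array left out for all lists, an alternative chosen after seeing the data, 2 of the 9 genes and 22 of the other genes were called. *Slc2a1* was not called (-0.57) with normexp background correction. Of the other carbohydrate genes, 22 were called for diet and 0 for genotype, and 37 and 2 (*Aldoa* and *Pgam1*, both lower) without a fold change threshold. Leaving out each array gave 21 to 24 for diet and 0 each time for genotype, and no alternative called 1 of the 9 genes for genotype. No called value changed sign. Over all genes, 694 were called higher and 1121 lower, 884 and 938 under that scaling of the median signal, 1170 and 1457 under that of the processed signal, and 589 and 775 with normexp.

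Same-numbered arrays deviated together in some pairs and not in others. Their correlations ran from -0.22 to 0.35, above 0.1 in 4, 2 and 3 of 6 pairs of each 2 groups, and 4, 1 and 3 arrays correlated best with their own number. These values do not settle whether the numbers mark a pairing or a shared batch, and the main model did not use them. With the replicate block 3 of the 9 genes and 22 other carbohydrate genes were called for diet, and 0 and 0 for genotype.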
